A study of Homo sapiens with 6 samples.

Results

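The genes described here encode 10 proteins that work with Myc on chromatin or control how long Myc proteins last, namely TRRAP, KAT5, KAT2A, EP400, RUVBL1, RUVBL2, WDR5, ZBTB17, SKP2 and FBXW7, out of 20136 protein-coding genes in the annotation used. They were chosen by name, and a gene counted as listed when a promoter, typical enhancer or super-enhancer list of N-Myc, of JMJD6 or of both proteins named it. The lists come from ChIP sequencing (ChIP-Seq) in CHP-134 cells, a human neuroblastoma line that the series title describes as overexpressing N-Myc. There were 6 samples in 2 groups: 3 replicates with the N-Myc antibody sc-53993, from cells fixed with formaldehyde alone, and 3 with the JMJD6 antibody ab64575, from cells fixed with disuccinimidyl glutarate (DSG) and then formaldehyde. All samples were of 1 cell line in the same culture medium, no other treatment is labelled, and nothing says whether replicates came from separate cultures. Antibody and cross-linking changed together, so a difference between the lists of N-Myc and JMJD6 cannot be told apart from a difference in fixation.

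Each protein has a single list of peaks common to its 3 replicates, with 10172 peaks for N-Myc and 561 for JMJD6, and 241 intervals in the list of shared peaks. The lists hold positions only. No peak height, score or read number stands beside a position, so there is no spread between replicates, the depth behind a peak is unknown, and no test was made. Absence of a gene from a list is not the same as having no protein bound. Coordinates are 1-based on GRCh37 (hg19).

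Myc proteins bind DNA as dimers with MAX, most tightly at the E-box, and recruit enzymes that open chromatin. TRRAP is the large scaffold that Myc contacts through its conserved Myc box II, and it brings in the histone acetyltransferases KAT5 (TIP60) and KAT2A (GCN5). EP400, RUVBL1 and RUVBL2 are ATPases of the TIP60 complex, and WDR5 helps Myc find its chromatin sites. ZBTB17 (MIZ-1) is a partner through which Myc can repress genes. SKP2 and FBXW7 are F-box proteins that direct Myc to ubiquitination. Myc proteins are short-lived, and in neuroblastoma Aurora A kinase is known to shield N-Myc from FBXW7.

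N-Myc was listed at the promoters of 4 of the 10 genes, KAT5, KAT2A, RUVBL1 and FBXW7. A promoter here is 1 kb on each side of a RefSeq start site. Across all protein-coding genes the share with a listed N-Myc promoter was 17.0%, against 40.0% of the 10. The same 4 genes were also named by an N-Myc-bound typical enhancer, and EP400 and WDR5 were named by such enhancers alone, which makes 6 of 10 against 30.4% of all protein-coding genes. TRRAP, RUVBL2, ZBTB17 and SKP2 were in no list. No N-Myc-bound super-enhancer named any of the 10 (background 1.27%). By all annotated start sites in place of listed promoters, a common N-Myc peak lay within 1 kb of the same 4 genes (background 20.8%) and a JMJD6 peak of none (background 0.780%). These shares are set side by side as a description.

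**Figure D1:**
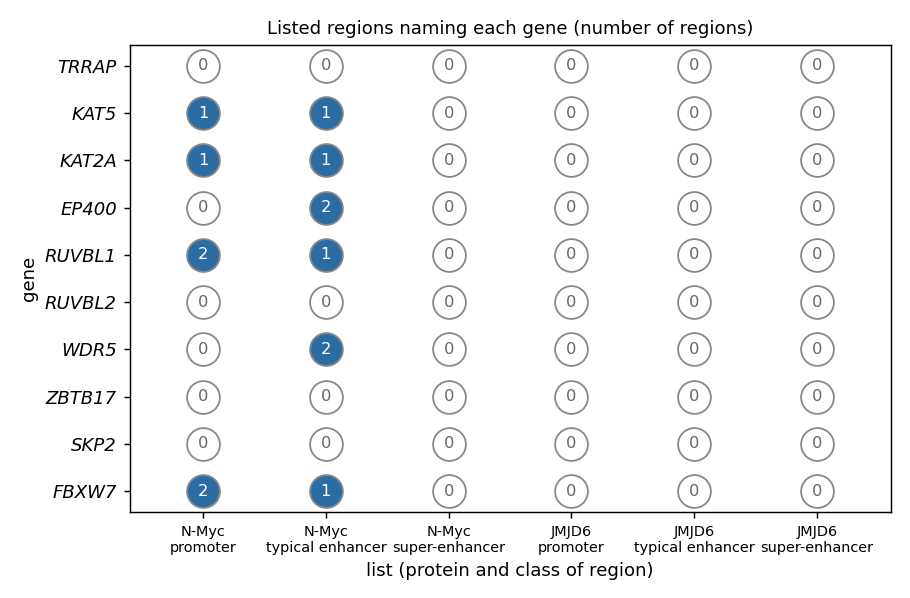
Number of listed regions that name each gene (rows) in each of the 6 lists (columns, by protein and class of region), with filled circles for 1 or more. KAT5, KAT2A, RUVBL1 and FBXW7 had N-Myc promoters and enhancers, EP400 and WDR5 had enhancers only, and every JMJD6 and super-enhancer cell is 0.

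The JMJD6 lists named none of the genes. The count was 0 of 10 for promoters, where 0.606% of all protein-coding genes were listed, and 0 of 10 for typical enhancers and super-enhancers, where the background was 0.934%. With backgrounds this low, counts of 0 are no result about these 10 genes. No JMJD6 peak overlapped any of the 14 regions that named them. From the start site of the canonical transcript the nearest JMJD6 peak lay between 211 kb away, at RUVBL2, and 7626 kb away, at EP400. The median over the 10 genes was 1545 kb, and over all protein-coding genes it was 2535 kb.

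KAT5, the catalytic subunit of the TIP60 complex, had the densest run of E-boxes. Its N-Myc peak spanned chr11:65479307-65479730, 424 bp wide, from 165 bp upstream to 258 bp downstream of the listed start site at 65479472. The peak lay over an untranslated exon and the sequence just before it. The canonical E-box, CACGTG, occurred 3 times in it, at 34 and 14 bp upstream and 16 bp downstream of the start site. Adjacent boxes were 20 and 30 bp apart. Of 3550 N-Myc peaks at listed promoters, 29 (0.817%) held 3 or more such boxes and 36.9% held any. The upstream pair and the box behind the start site are shown on the gene's strand, with the E-box in capitals, because they flank the start site.
KAT5, chr11:65479377-65479466: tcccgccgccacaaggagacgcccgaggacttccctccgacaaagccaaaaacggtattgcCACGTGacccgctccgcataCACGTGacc
KAT5, chr11:65479476-65479505: cccggtgggcgtCACGTGacggactcagta

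An N-Myc-bound typical enhancer of 8.78 kb, chr11:65479162-65487943, started over this promoter and ran across the KAT5 gene, which the annotation places at 65479467 to 65487075. It was longer than 80.3% of the 4649 N-Myc-bound typical enhancers, whose median length was 2.55 kb. The same region was assigned to RNASEH2C, a subunit of ribonuclease H2, and the KAT5 promoter peak was the only common N-Myc peak within it.

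KAT2A, the acetyltransferase of the SAGA complex, had an N-Myc peak without the canonical E-box. The peak spanned chr17:40273363-40273806, 444 bp wide, and lay almost wholly upstream of the listed start site on the minus strand, from 424 bp before it to 19 bp after it. The annotation places it also in an intron of another protein-coding gene on the same strand, ENSG00000267261. The peak held 2 copies of the variant box CACGCG, read as CGCGTG on the other strand, at 262 and 317 bp upstream. Of the 3550 promoter peaks, 29.2% held this variant and 56.9% held either form. The stretch with both variant boxes is shown on the strand of KAT2A, with the boxes in capitals, to set it beside the E-boxes of KAT5.
KAT2A, chr17:40273627-40273711: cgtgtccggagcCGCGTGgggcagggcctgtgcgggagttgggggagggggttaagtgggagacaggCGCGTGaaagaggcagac

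A typical enhancer of 1.62 kb, chr17:40272680-40274304, covered the same KAT2A peak and was assigned also to HSPB9, a small heat shock protein gene. Beyond the peak, 3 further CACGCG boxes lay between 509 and 991 bp upstream of KAT2A, outside any common N-Myc peak.

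RUVBL1 had the widest peak of the listed promoters in this set, at 758 bp, which placed it at the 87.5th percentile of N-Myc promoter peaks. It spanned chr3:127842437-127843194, from 464 bp upstream to 293 bp downstream of the listed start site at 127842730, and covered coding and untranslated exon sequence. Another listed start site of RUVBL1, at 127842671, lay 59 bp away under the same peak. Its single CACGTG was 220 bp downstream of the start site and 311 bp from the peak centre. It is shown on the strand of RUVBL1.
RUVBL1, chr3:127842493-127842522: gcctcccacagcCACGTGaaagggctgggg

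The RUVBL1 enhancer, chr3:127841034-127843469, was 2.44 kb long and was assigned also to SEC61A1, a subunit of the protein translocation channel. Of 8 annotated start sites of RUVBL1, only the 1 at 127842655 was within 1 kb of a common N-Myc peak.

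RUVBL2, which forms rings with RUVBL1, was in no list. The nearest common N-Myc peak, chr19:49468748-49469501, lay 27.6 kb from its start site, at FTL, the ferritin light chain gene. Within 1 kb of the RUVBL2 start site there was no CACGTG and 1 CACGCG, 475 bp upstream.

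FBXW7, the F-box protein that recognises Myc phosphorylated by GSK3, was the only gene of the set with more than 1 N-Myc peak at its promoter. A peak of 218 bp, chr4:153457208-153457425, covered the start site at 153457247, and a peak of 524 bp, chr4:153457558-153458081, lay 311 to 834 bp upstream, with 132 bp between them. The narrow peak was at the 0.873rd percentile of promoter peak widths and held no CACGTG, no CACGCG and no CANNTG. The upstream peak was at the 62.8th percentile and held 1 CACGTG, 644 bp before the start site. It is shown on the strand of FBXW7.
FBXW7, chr4:153457844-153457933: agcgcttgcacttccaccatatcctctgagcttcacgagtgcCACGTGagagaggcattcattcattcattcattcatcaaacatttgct

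The FBXW7 promoter is shared. Listed N-Myc promoters of LINC02486 and MIR4453, both non-coding genes, overlapped both peaks, and the E-box lay in an exon of the long non-coding RNA MIR4453HG. Which of these genes the upstream peak belongs to cannot be told apart from positions. FBXW7 had 2 listed start sites 854 bp apart, and the one at 153456393 was listed through the narrow peak alone. Of 19 annotated start sites of FBXW7, 8 were within 1 kb of a common N-Myc peak. The typical enhancer assigned to FBXW7 was short, at 1.08 kb (chr4:153457497-153458579), covered the upstream peak alone, and was assigned also to TMEM154.

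**Figure D2:**
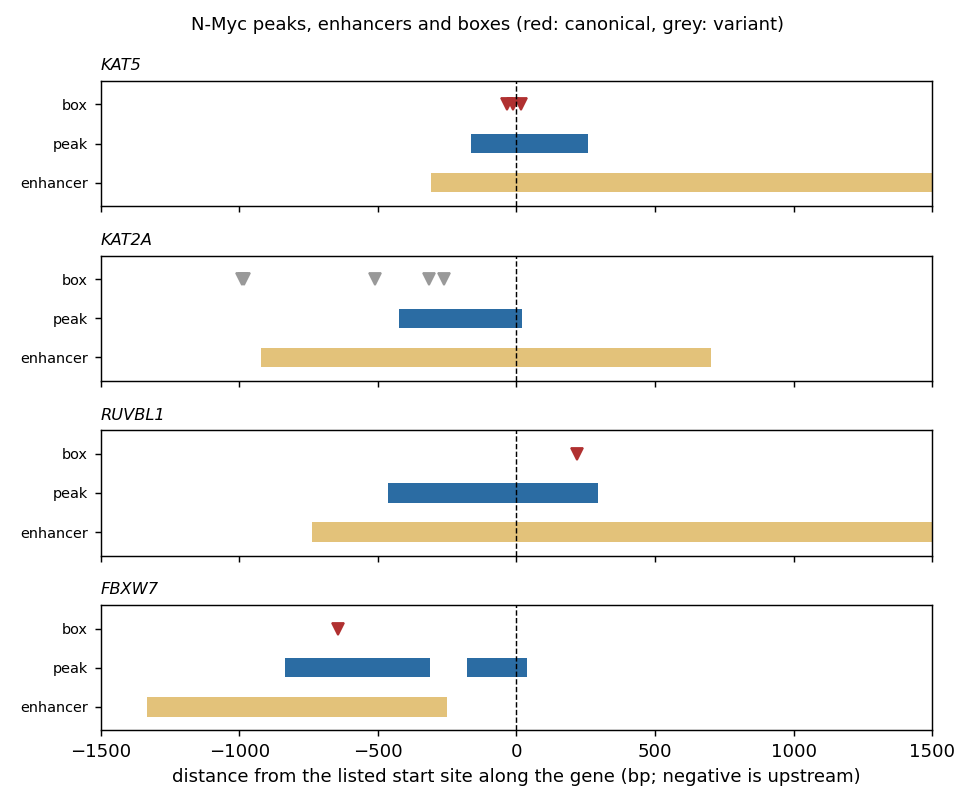
Common N-Myc peaks (blue), N-Myc-bound typical enhancers (yellow, cut at the plot's edge) and boxes (triangles, red for CACGTG and grey for CACGCG) at the 4 listed promoters, by distance in bp from the listed start site along the gene. The 3 KAT5 boxes sit at the start site, those of FBXW7 and KAT2A upstream, and that of RUVBL1 220 bp downstream.

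All 4 genes with an N-Myc promoter had an enhancer of their own overlapping that promoter. Among all 3421 protein-coding genes with a listed N-Myc promoter this held for 65.0%, and the study's methods subtract H3K27ac peaks close to start sites before enhancers are called. For KAT5, KAT2A and RUVBL1 the promoter and enhancer entries rest on the same peak and are not separate evidence of binding. For FBXW7 they share the upstream peak, and the narrow peak was in promoter entries alone.

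The median of the widest promoter peak per gene was 484 bp over the 4 genes. Over all 5 of their promoter peaks it was 444 bp, which is the measure to set beside the median of all N-Myc promoter peaks, 452 bp. Width was the only size that could be read from the lists, and it says nothing directly about occupancy.

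**Figure D3:**
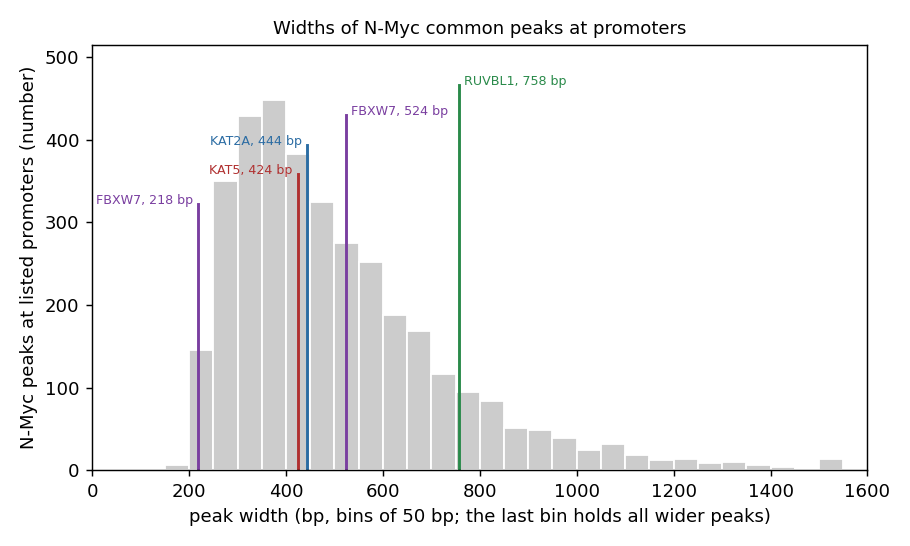
Widths in bp of the 3550 N-Myc peaks at listed promoters (grey bars, number of peaks in bins of 50 bp, all wider peaks in the last), with coloured lines for the 5 peaks at KAT5, KAT2A, RUVBL1 and FBXW7. The lines run from 218 to 758 bp, with KAT5 and KAT2A near the median of 452 bp.

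EP400, the ATPase that exchanges histone H2A variants within the TIP60 complex, was named by enhancers that lay at other genes' promoters. The first, chr12:132413759-132415662, was listed 19.8 kb upstream of EP400, and its peak of 354 bp (chr12:132413721-132414074) covered the promoter of PUS1, a pseudouridine synthase gene. The second, chr12:132568385-132569993, was listed 135 kb downstream of the EP400 start site, and its peak of 353 bp (chr12:132568341-132568693) overlapped the listed promoter of EP400NL. The regions were assigned also to PUS1 and DDX51, respectively. Each peak held 1 CACGTG. The EP400 start site at 132434487 had a CACGTG 338 bp upstream, and its nearest common N-Myc peak was 20.4 kb away. These boxes are shown on the plus strand, 2 in peaks followed by 1 outside, since the same letters stood with and without a listed peak.
Peak at PUS1, chr12:132413788-132413817: tccgccttcgccCACGTGgtccggctccgg
Peak at EP400NL, chr12:132568629-132568658: caactcagtgccCACGTGcgaatgaatgaa
EP400, no peak, chr12:132434137-132434166: ccacttctgttcCACGTGggcgcatttccc

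WDR5, a WD-repeat protein that also holds together the COMPASS histone H3 methyltransferases, was named by 2 typical enhancers downstream of the gene. The nearer, chr9:137029667-137030895, was listed 29.1 kb from its start site, and the farther, chr9:137097229-137098895, 96.9 kb away. Both were assigned also to RXRA, the retinoid X receptor alpha gene. The nearer held a peak of 290 bp, chr9:137029846-137030135, in the listed promoter of RNU6ATAC, a small nuclear RNA of the minor spliceosome. That peak contained no CACGTG, no CACGCG and no CANNTG, the form that takes any middle bases, which 87.1% of N-Myc promoter peaks contained. It is printed whole to show an N-Myc peak without an E-box.
Peak at RNU6ATAC, chr9:137029846-137030135: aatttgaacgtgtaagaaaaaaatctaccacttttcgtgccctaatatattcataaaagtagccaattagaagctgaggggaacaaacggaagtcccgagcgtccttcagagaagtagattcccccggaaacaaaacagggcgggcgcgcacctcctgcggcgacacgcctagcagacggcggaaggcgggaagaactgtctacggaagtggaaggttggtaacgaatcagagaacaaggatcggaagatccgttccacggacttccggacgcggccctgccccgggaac

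The farther WDR5 enhancer overlapped no listed promoter and was the only such region among the 8 enhancers of the set (1 of 10 genes, against 13.8% of all protein-coding genes named by an enhancer away from listed promoters). Its peak, chr9:137097849-137098469, was 621 bp wide and intergenic. It held no CACGTG but 8 CANNTG boxes, a form found in 96.8% of the N-Myc peaks outside listed promoters. Within 1 kb of the WDR5 start site a CACGTG lay 203 bp downstream, in the first intron, with no common N-Myc peak over it.

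TRRAP had no entry in any list. The nearest common N-Myc peak to its start site, chr7:98407784-98408238, was intergenic and 67.9 kb away, and neither CACGTG nor CACGCG occurred within 1 kb of the start site. ZBTB17 lay farthest from a peak. The nearest, chr1:16175749-16176804, was 126 kb from its start site, within SPEN, and the window around the ZBTB17 start site held a single CACGCG 361 bp downstream. For SKP2, the F-box protein that both ubiquitinates Myc and serves it as a coactivator, the nearest peak was 89.8 kb away, within NADK2 (chr5:36241999-36242620). The SKP2 window had a CACGTG 711 bp downstream of the start site, in coding sequence, and a CACGCG 419 bp upstream.
WDR5, no peak, chr9:137001395-137001424: acccggccgccgCACGTGttccccgccggg
SKP2, no peak, chr5:36152912-36152941: tgccaccagcttCACGTGgggatgggattc

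A CACGTG within 1 kb of the start site occurred at 3 of the 4 genes with a listed N-Myc promoter, KAT5, RUVBL1 and FBXW7. It also occurred at 3 of the 6 without one, namely EP400 and WDR5, which enhancers named, and SKP2, which was in no list. Over all protein-coding genes the shares were 47.0% of 3421 genes with a listed N-Myc promoter and 25.6% of 16715 without. These shares were read at canonical start sites, while the 4 listed genes were read at the listed start site nearest their N-Myc peak.

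**Figure D4:**
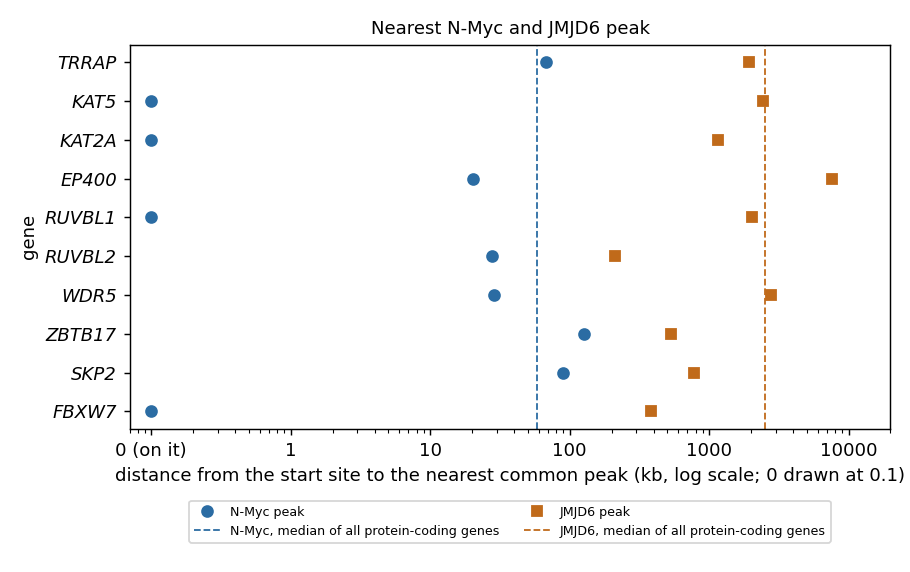
Distance in kb (log scale, 0 drawn at 0.1) from the canonical start site of each gene to the nearest common N-Myc peak (circles) and JMJD6 peak (squares), with dashed lines at the medians of all protein-coding genes, 58.7 and 2535 kb. The N-Myc peak lay on the start site in 4 genes and 20.4 to 126 kb away in the other 6, and the JMJD6 peaks lay 211 to 7626 kb away.

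The partners of these proteins were then counted from lists of complexes and enzymes, with the 10 genes left out. Of 100 such genes, 46 had a listed N-Myc promoter (46.0%, background 17.0%). The lists share a few genes. In the TIP60/NuA4 complex it was 9 of 13, among them DMAP1, BRD8, EPC1 and MBTD1, and not EPC2, MORF4L2, MEAF6 or YEATS4. Among the INO80, SRCAP and R2TP partners of RUVBL1 and RUVBL2, which remodel nucleosomes or assemble large complexes, it was 13 of 20, with INO80, INO80B, INO80C and INO80E listed and ACTR8, NFRKB, SRCAP and ACTR6 not.

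The other lists had smaller shares. In the SAGA complex 7 of 20 were listed, TADA1, SUPT3H, TAF12 and ATXN7 among them, while KAT2B, TADA2B, TADA3 and SGF29 were not. In the WDR5 and COMPASS list it was 6 of 16, with RBBP5, DPY30, KMT2A and CXXC1 listed and ASH2L, KMT2B, KMT2C and KMT2D not. Of the Myc turnover enzymes 10 of 26 were listed. CKS1B, the cofactor of SKP2, USP36, a nucleolar deubiquitinase of Myc, AURKA, which encodes Aurora A, and GSK3A were listed, and SKP1, CUL1, RBX1 and HUWE1 were not. Of 7 partners and targets of MIZ-1 only NPM1 was listed, and GFI1, BCL6, TOPBP1 and HUWE1 were not. HUWE1 is 1 of 5 partner genes on chromosome X, from which neither promoter list has an entry. Without those 5 the count was 46 of 95 (background 17.8%). By annotated start sites HUWE1, CUL1, KMT2D and MORF4L2 had an N-Myc peak within 1 kb and BTRC, USP36, SUPT3H and FBXL14 did not. The count was again 46 of 100, against a higher background of 20.8% by that measure.

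**Figure D5:**
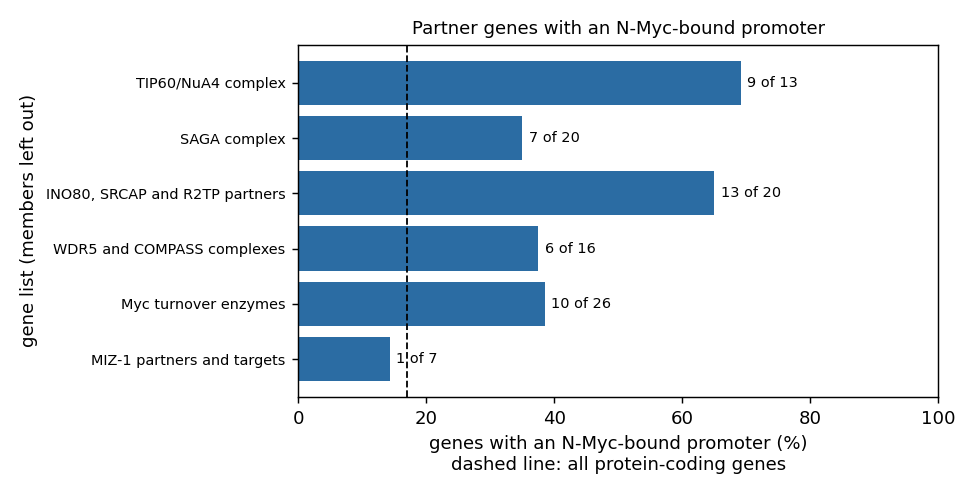
Share in percent of partner genes with a listed N-Myc promoter in each of the 6 gene lists, with the count beside each bar and a dashed line at 17.0%, the share of all protein-coding genes. The bars run from 1 of 7 for MIZ-1 partners and targets to 9 of 13 for the TIP60/NuA4 complex.

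JMJD6 was listed at the promoters of 3 of the 100 partner genes (background 0.606%), BTRC, USP36 and ENY2. JMJD6-bound typical enhancers named 3 of the 100, ENY2, USP36 and NFRKB (background 0.934% for typical enhancers and super-enhancers). At ENY2, a SAGA subunit, both proteins were listed with the same peak interval of 822 bp (chr8:110346171-110346992) over the start site. How an interval listed for both proteins came to have identical edges was not tested. BTRC and USP36 were listed as bound by both proteins, but no common N-Myc peak overlapped either promoter. At BTRC, the F-box protein that opposes FBXW7 on Myc, the JMJD6 peak was 290 bp wide (chr10:103113585-103113874) and the nearest common N-Myc peak was 10.7 kb from the start site. At USP36 the JMJD6 peak was 257 bp wide (chr17:76836891-76837147) and the nearest common N-Myc peak was 50.6 kb away. In the same way SUPT3H and FBXL14 had listed N-Myc promoters without a common N-Myc peak. These 4 genes were 8.70% of the 46, against 2.31% of all 3421 genes with a listed N-Myc promoter. None of the promoters of KAT5, KAT2A, RUVBL1 and FBXW7 was of this kind. By the study's methods a promoter was listed as a region, when peaks of all 3 replicates overlapped it. Whether the replicate peaks coincided at BTRC, USP36, SUPT3H and FBXL14 was not tested.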

How the data were processed

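ChIP-Seq was carried out with 3 samples per antibody. By the study's methods, BWA was used by the authors for alignment. They called peaks in each replicate with MACS2 (version 2.1.1.20160309) against input at a maximum q-value of 0.05. The common peaks are those found in all 3 replicates. Promoters and enhancers were listed as regions, when peaks of all 3 replicates overlapped them. Enhancers came from ROSE on H3K27ac peaks stitched within 12.5 kb, which were not used here, and the nearest genes from GREAT. The 12 deposited lists hold positions in bp on hg19, with gene symbols or signed distances.

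Positions were read against GRCh37 and GENCODE version 44 lifted to it. Of N-Myc and JMJD6 promoters with an annotated symbol, 87.8% and 89.4% were centred within 100 bp of a start site of that symbol. Overlap meant at least 1 bp. Motifs were counted on both strands. CACGTG is its own reverse complement and is one form of CANNTG. Distances to the nearest peak and E-box shares over all genes were taken at the canonical transcript's start site. Counts by annotated start sites used every annotated start site of a gene. Sequences were read from the reference. Scripts ran in Python 3.11.15 with pysam 0.24.0, numpy 2.4.6 and matplotlib 3.10.9, and the overlap and motif functions were tested on simulated data.

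The genes and partner lists were chosen with earlier results of these data known, so no list was tested. The rule for named genes took all 10 genes, every gene sharing a listed peak or region with them, partners with a JMJD6 promoter, and the first 4 listed and unlisted genes of each partner list. SUPT3H and FBXL14 as promoters without a peak were singled out after their values were seen.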

Additional observations from a re-analysis of the deposited data

How the results depend on the processing

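The 4 genes with an N-Myc promoter were the same when annotated start sites, older symbols, rows with a common peak, rows with a peak midpoint or peaks at or above 418 bp, the median width of all N-Myc peaks, were used. The counts of 0 for JMJD6 and for super-enhancers also stayed at 0 under each alternative run for them. Leaving out typical enhancers that overlap a listed promoter reduced the genes named by an N-Myc-bound enhancer from 6 to 1, WDR5. Counting every promoter peak moved the median width from 484 to 444 bp, from above to below the 452 bp of all N-Myc promoter peaks. A CACGTG was present in 3 of the 4 promoters over the whole peak (36.9% of N-Myc promoter peaks) and in 2 within 100 bp of the centre (23.0%), where RUVBL1 dropped out. The counts are per gene, with FBXW7 counted through either of its peaks, while the percentages are per peak. Requiring a common N-Myc peak, an alternative chosen after seeing the data, left 42 of the 46 partner genes (background 16.6%). Annotated start sites added TAF12 to the JMJD6-bound partners, 4 in place of 3 (background 0.780%). Width is no substitute for a score, and the lists do not allow a replicate to be left out. No paired analysis was possible because the lists hold no value per sample.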

Other observations

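Over the lists of both proteins the 10 genes fell into 3 patterns. Both an N-Myc promoter and an N-Myc typical enhancer, with no other entry, was the pattern of KAT5, KAT2A, RUVBL1 and FBXW7, and 2309 protein-coding genes (11.5%) had it. An N-Myc typical enhancer alone, as for EP400 and WDR5, was the pattern of 3499 genes (17.4%). No entry at all, as for TRRAP, RUVBL2, ZBTB17 and SKP2, was the pattern of 12906 genes (64.1%).

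N-Myc peaks also lay inside the genes, outside any region that named them. A peak of 289 bp at chr7:98638078-98638366 lay in a TRRAP intron, 162 kb from the TRRAP start site, and over a coding exon of SMURF1 on the opposite strand. A peak of 290 bp at chr3:127786990-127787279 lay in a RUVBL1 intron, 55.5 kb from its start site, and over the untranslated exon of SEC61A1. Neither peak held a CACGTG, and neither was in a listed promoter or enhancer.

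Each of the 3 E-boxes of KAT5 is followed by AC on the gene's strand. The extended form CACGTGAC, searched on both strands after it was seen there, occurred in 211 of the 3550 N-Myc peaks at listed promoters (5.94%).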
